A study of Homo sapiens with 4 samples.

Results

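Chaperones are proteins that fold other proteins and keep them soluble. A total of 43 genes of this kind were followed in HCT116, an established line of human colorectal cancer cells, after depletion of the nucleolar protein LAS1L. They were taken by name, and 42 of them are among the 20039 genes with a probe. By class they are 20 genes of the unfolded protein response of the endoplasmic reticulum (ER), 12 of the cytosolic heat shock system, 8 subunits of the cytosolic chaperonin TRiC/CCT and 3 mitochondrial chaperones. Their RNA was read on Illumina HumanHT-12 v4 bead arrays. LAS1L is needed for maturation of the large ribosomal subunit, and the series concerns nucleolar stress in cancer cells. The 2 Las1L siRNA arrays came from cells given siRNA #1 and cells given siRNA #2, 1 array each. The 2 control siRNA arrays are replicates 1 and 2 of a single control siRNA. All cells received 40 nM siRNA with a lipid reagent for 72 h. No label says that the control arrays came from separate cultures, so p-values measure only the spread between these arrays, which may be technical on the control side and includes the difference between siRNAs on the other. As the arrays read bulk RNA, fewer expressing cells and less RNA per cell cannot be told apart.

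The 3 siRNA sequences are shown because they define the groups. They are RNA bases as the labels give them, without the added overhang, and the labels do not say which strand they are.
Las1L siRNA #1: cugauacgcuguaagcucu
Las1L siRNA #2: cauuuauacccagagugga
control siRNA: gaucauacgugcgaucaga

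In the ER, the chaperone HSPA5 (BiP) and its partners fold secreted proteins. When unfolded proteins accumulate, the sensors IRE1, ATF6 and PERK raise production of these chaperones, in part through the ER stress element of their promoters, a CCAAT box followed after 9 bases by CCACG. In the cytosol, the factor HSF1 activates HSP70, HSP90 and small heat shock genes through heat shock elements, repeats of GAA and TTC. The chaperonin TRiC/CCT is a ring of different subunits that folds actin and tubulin, and HSPD1 and HSPE1 form the corresponding chamber of mitochondria.

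Promoter windows of 300 bases (250 before a transcript start and 50 after it) were found for 40 of the 43 genes in RefSeq, build GRCh38.p14. Where a gene has several starts, each window was searched, on both strands. The full ER stress element was present for 7 of 19 ER genes, against 25 of all 27305 genes with a window, or 0.0916%. It was found for no gene of the other 3 classes. The elements of these 7 genes are shown, since they allow the ER genes to be read by a shared promoter feature. Each is given in the direction of its gene with 15 bases on either side, and the capitals mark the CCAAT and CCACG blocks, or their complements where the element lies on the other strand.
HSPA5, chr9:125241376-125241424, minus strand: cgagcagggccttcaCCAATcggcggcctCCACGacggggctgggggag
HSP90B1, chr12:103930201-103930249, plus strand: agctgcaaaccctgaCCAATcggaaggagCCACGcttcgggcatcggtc
HSP90B1, chr12:103930306-103930354, plus strand: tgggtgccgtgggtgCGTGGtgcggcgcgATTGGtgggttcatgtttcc
CALR, chr19:12938369-12938417, plus strand: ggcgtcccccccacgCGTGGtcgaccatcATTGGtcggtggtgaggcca
CANX, chr5:179698763-179698811, plus strand: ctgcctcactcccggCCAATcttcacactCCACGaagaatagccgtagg
PDIA6, chr2:10812838-10812886, minus strand: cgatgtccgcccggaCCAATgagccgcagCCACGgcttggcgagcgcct
XBP1, chr22:28800588-28800636, minus strand: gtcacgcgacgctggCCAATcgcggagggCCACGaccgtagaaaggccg
CRELD2, chr22:49918539-49918587, plus strand: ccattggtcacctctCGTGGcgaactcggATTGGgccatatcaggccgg

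The core of the heat shock element was searched as GAANNTTC or TTCNNGAA, both of which read the same on either strand and can overlap by 3 bases. At least 1 of the 2 was present for 8 of 11 cytosolic genes with a window (DNAJA1, DNAJB1, HSP90AA1, HSP90AB1, HSPA1A, HSPA1B, HSPA8 and HSPB1), against 16.2% of all genes with a window. The core was not particular to this class. It was also present for 3 of 7 chaperonin genes (CCT2, CCT4 and TCP1), 2 of 3 mitochondrial chaperones (HSPA9 and HSPD1) and 1 of 19 ER genes (CANX). The matches of HSPB1 and HSPA1B are shown with 15 bases on either side, as the cytosolic gene that rose and a classic heat shock gene that did not pass the test, and the capitals mark the GAA and TTC blocks.
HSPB1, chr7:76302476-76302513, plus strand: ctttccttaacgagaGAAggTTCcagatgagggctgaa
HSPA1B, chr6:31827618-31827655, plus strand: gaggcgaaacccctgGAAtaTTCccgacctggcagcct
A match of letters is a description of these windows and not evidence of binding.

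The arrays carried LAS1L depletion. The LAS1L probe gave 211.5 units with siRNA #1 and 158.1 with siRNA #2, against 770.0 and 717.5 units with control siRNA, a log2 fold change of -2.02 (SE 0.14, adjusted p = 1.0e-08 in limma). Over all tested genes the log2 signals correlated at 0.989 between the Las1L arrays, 0.988 between the control arrays and 0.974 to 0.975 across the groups. Of 10 colon epithelial markers 6 were above the background limit of 28.1 units on every array, among them EPCAM and KRT19, while CDX1, VIL1, LGALS4 and CLDN4 were below it on all 4. Their summed signal was 20702 to 20807 units on the Las1L arrays and 20245 to 21496 units on the control arrays. The sum is carried by the bright KRT19, EPCAM and KRT8, and the dimmer CDH1 (E-cadherin) rose by 0.43 (adjusted p = 0.0194 in limma), with 524.3 and 527.1 units with Las1L siRNA and 437.3 and 347.6 units with control siRNA. The part of these markers in the results was not tested. Of the other cell types, 0 of 6 fibroblast, 0 of 4 endothelial and 1 of 5 leukocyte markers were above the limit on every array. This leukocyte marker was HLA-DRA, with 136.2 and 134.9 units with Las1L siRNA and 80.1 and 112.4 units with control siRNA, while PTPRC and CD3E were below the limit on all 4.

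After depletion of LAS1L most of the chaperone genes were near their control level, 25 of them within 0.2 of it on the log2 scale. Of the 43 genes 39 were tested, which required a signal above the background limit on at least 2 arrays, and 6 of the 39 passed limma with an intensity trend at an adjusted p of 0.05. The small heat shock protein HSPB1, the ER co-chaperone DNAJB9 and the lectin chaperone CANX rose. The chaperonin subunit CCT5, the heat shock factor HSF1 and the mitochondrial chaperonin HSPD1 fell. These 6 are 15.4% of the tested members, below the 22.1% called among all 10466 tested genes (11.3% higher and 10.8% lower). The 4 untested genes were HERPUD1, for which the annotation used lists no probe, and PDIA3, SEL1L and HSPA1A, whose probes were below the background limit on all 4 arrays.

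**Figure D1:**
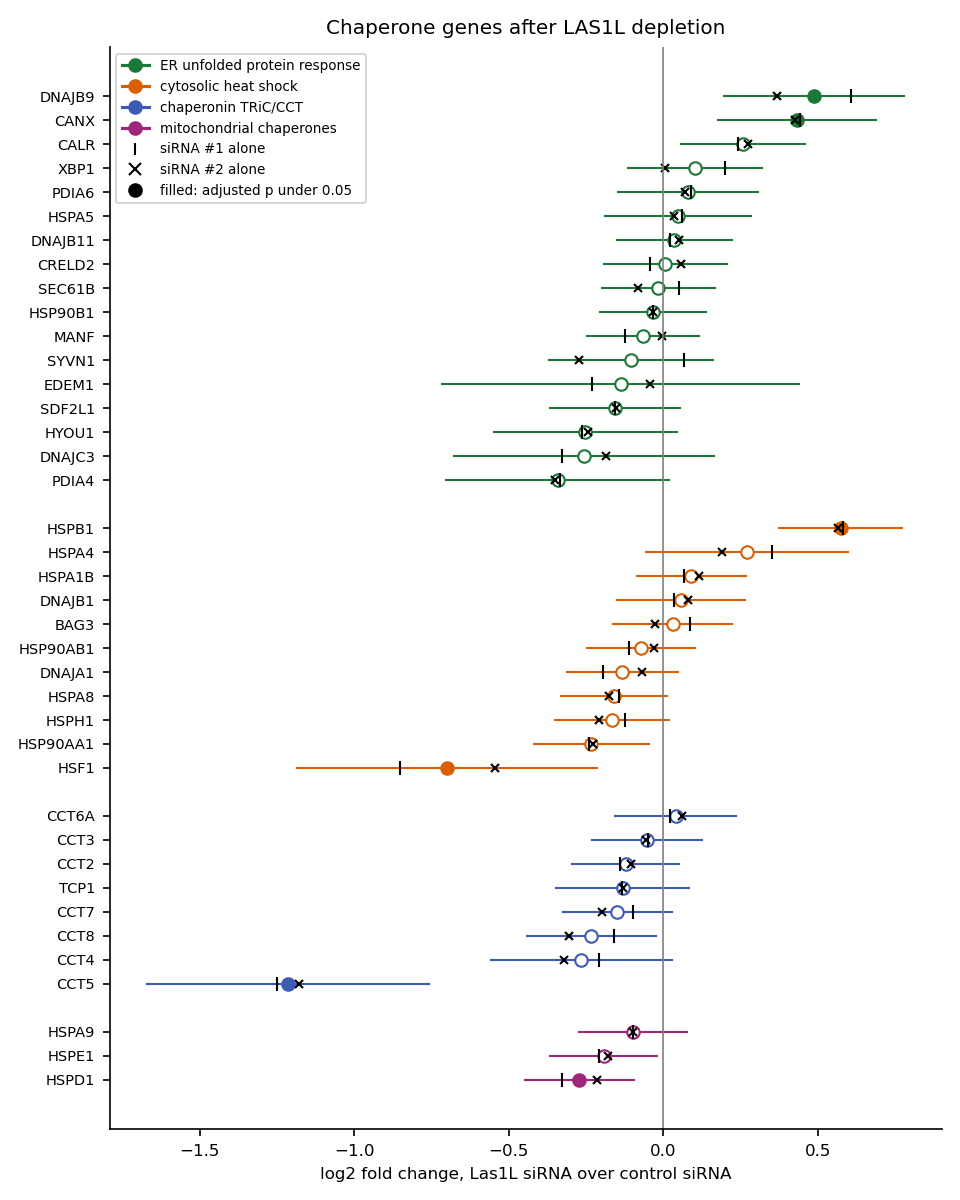
Log2 fold change of each of the 39 tested chaperone genes, Las1L siRNA over control siRNA, grouped by class. Circles are the mean of both siRNAs with the 95% interval of limma, filled where the adjusted p is under 0.05, and the black marks give each siRNA alone against the control mean. DNAJB9, CANX and HSPB1 lie right of 0 and HSF1, CCT5 and HSPD1 left of it, while the intervals of most other genes include 0.

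The calls depended on the model and on single arrays. Without the intensity trend CCT5 alone passed of the 39, and 500 of all 10466 genes, 4.78%, did. A fit without 1 array leaves a single array in 1 group, which borrows its spread from the other group. Only the fold changes of such fits are given here, and the ranges of their counts are in the closing section. With siRNA #2 alone the median log2 fold change of the 39 was -0.07, and with siRNA #1 alone it was -0.10. The median of all tested genes was 0.00 to 2 decimals in both fits. Without control replicate 1 the log2 fold change was 0.425 for HSPB1, 0.46 for DNAJB9, 0.37 for CANX, -0.997 for CCT5, -0.89 for HSF1 and -0.24 for HSPD1. Without control replicate 2 it was 0.72 for HSPB1, 0.51 for DNAJB9, 0.50 for CANX, -1.43 for CCT5, -0.50 for HSF1 and -0.30 for HSPD1.

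The direction of small differences was uneven. Both Las1L arrays lay below both controls for 19 of the 39 genes (48.7%), against 29.8% of all tested genes, and above both controls for 6 (15.4%), against 29.9%. The median log2 fold change of the 39 was -0.10, and that of all tested genes was 0.00 to 2 decimals. Chaperone transcripts are abundant, and 26 of the 39 were among the 2615 brightest of the tested genes. Of these 26, 2 were called (7.69%), against 29.1% of the 2615, and 13 (50%) had both Las1L arrays below both controls, against 33.9% of the 2615. The median absolute log2 fold change was 0.11 for these 26 and 0.16 for the 2615. No test of these shares was made, since genes on the same arrays are not independent.

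**Figure D2:**
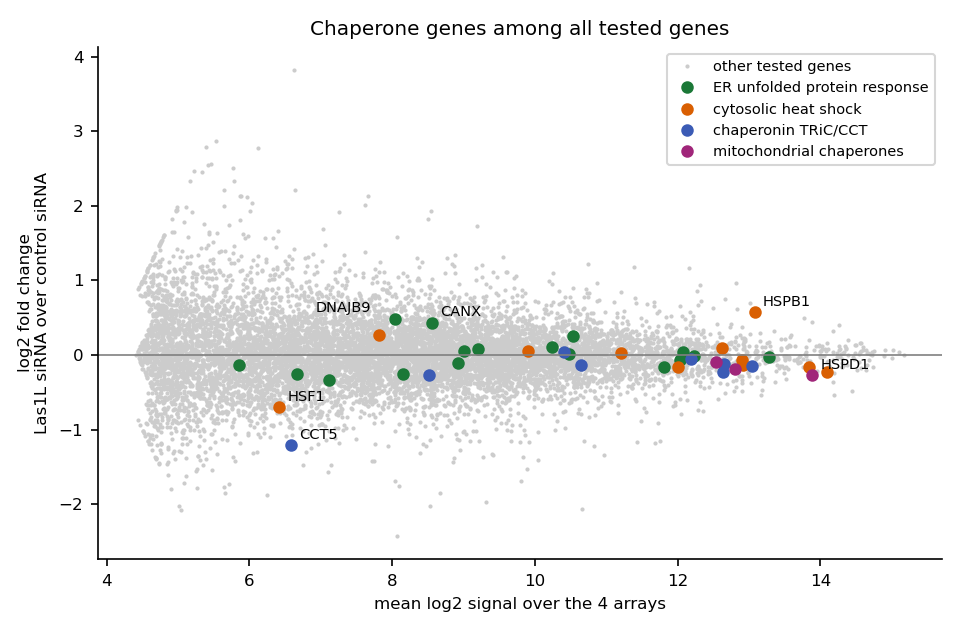
Log2 fold change, Las1L siRNA over control siRNA, against the mean log2 signal over the 4 arrays for all 10466 tested genes in grey and the chaperone genes in colour by class. The 6 genes past the threshold are named. Most chaperone genes sit at the bright end, close to or just below 0.

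Among the ER genes 2 of 17 tested rose (11.8%, against 11.3% of all tested genes) and 0 fell (against 10.8%). The class median was -0.02. The master chaperone HSPA5, the usual gauge of ER stress, had 525.2 and 516.7 units with Las1L siRNA and 487.2 and 521.9 units with control siRNA. The groups overlapped, and the log2 fold change was 0.05 with a 95% interval of -0.19 to 0.28 (adjusted p = 0.823). HSP90B1, the HSP90 of the ER, gave 9835 units on each Las1L array and 10099.3 and 10020.3 units on the controls, a log2 fold change of -0.03 with an interval of -0.20 to 0.14. XBP1, the transcription factor spliced by IRE1, had 1335.1 and 1168.7 units with Las1L siRNA and 1234.4 and 1097.5 units with control siRNA, with overlapping groups and a log2 fold change of 0.10 (interval -0.11 to 0.32). A second XBP1 probe, annotated to another RefSeq transcript of the gene, had a log2 fold change of 0.01, and whether the probes tell spliced from unspliced RNA was not tested.

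DNAJB9 (ERdj4), a co-chaperone that returns HSPA5 to IRE1 and assists ER-associated degradation, had 339.3 units with siRNA #1 and 287.7 with siRNA #2, against 219.4 and 226.6 units in the controls. Both Las1L arrays were above both controls, and it rose by 0.49 on the log2 scale (SE 0.14, adjusted p = 0.0168), which is 1.40-fold. CANX, the membrane-bound lectin chaperone of glycoproteins, gave 438.9 and 434.4 units with Las1L siRNA and 309.4 and 337.9 units with control siRNA. It rose by 0.43 (SE 0.12, adjusted p = 0.0151), or 1.35-fold, with no overlap between groups. On the second CANX probe the difference was 0.27, short of the threshold in the fit over all probes (adjusted p = 0.153). CALR, the soluble lectin chaperone that works beside CANX, showed 1595.6 and 1632.2 units with Las1L siRNA and 1282.4 and 1422.7 units with control siRNA. The groups did not overlap, and the log2 fold change of 0.26 (interval 0.06 to 0.46) missed the threshold (adjusted p = 0.0606). PDIA6, a disulfide isomerase, was the remaining ER gene with both Las1L arrays above both controls, at a log2 fold change of 0.08. Such genes were 23.5% of the tested ER genes, against 29.9% of all tested genes.

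The ER genes with both Las1L arrays below both controls were PDIA4, HYOU1, DNAJC3, MANF and HSP90B1, and 0 of the 5 passed. They are 29.4% of the tested ER genes, close to the 29.8% of all tested genes. PDIA4, a disulfide isomerase, had 123.5 and 122.2 units with Las1L siRNA and 153.4 and 158.2 units with control siRNA, a log2 fold change of -0.34 (interval -0.70 to 0.02, adjusted p = 0.167). HYOU1, a nucleotide exchange factor of HSPA5, had a log2 fold change of -0.25 on its brighter probe and -0.39 on the other. DNAJC3, a co-chaperone that restrains PERK, had -0.26 and the secreted factor MANF -0.07. The other ER genes were SDF2L1 (-0.16), the mannosidase-like lectin EDEM1 (-0.14), the ubiquitin ligase SYVN1 (-0.10), the translocon subunit SEC61B (-0.02), CRELD2 (0.01) and the HSPA5 co-chaperone DNAJB11 (0.04), each with overlapping groups and none past the threshold.

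Read by promoter, the 7 ER genes with the ER stress element shown above had log2 fold changes from -0.03 to 0.43, with a median of 0.08. Of these 6 were above 0 and 1 (CANX) rose, while 5229 of all 10466 tested genes were above 0. Among those above 0, HSPA5, XBP1 and CRELD2 had overlapping groups. The 10 tested ER genes with no such element in their windows ranged from -0.34 to 0.49, with a median of -0.12, and 2 were above 0, of which DNAJB9 rose. The split depends on the motif chosen. The CCACG block alone was present for 17 of 19 ER genes with a window, against 42.1% of all genes with a window. HYOU1, which lacks the full element, has another motif that was searched, TGACGTGG. These medians describe small groups and were not tested against each other.

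**Figure D3:**
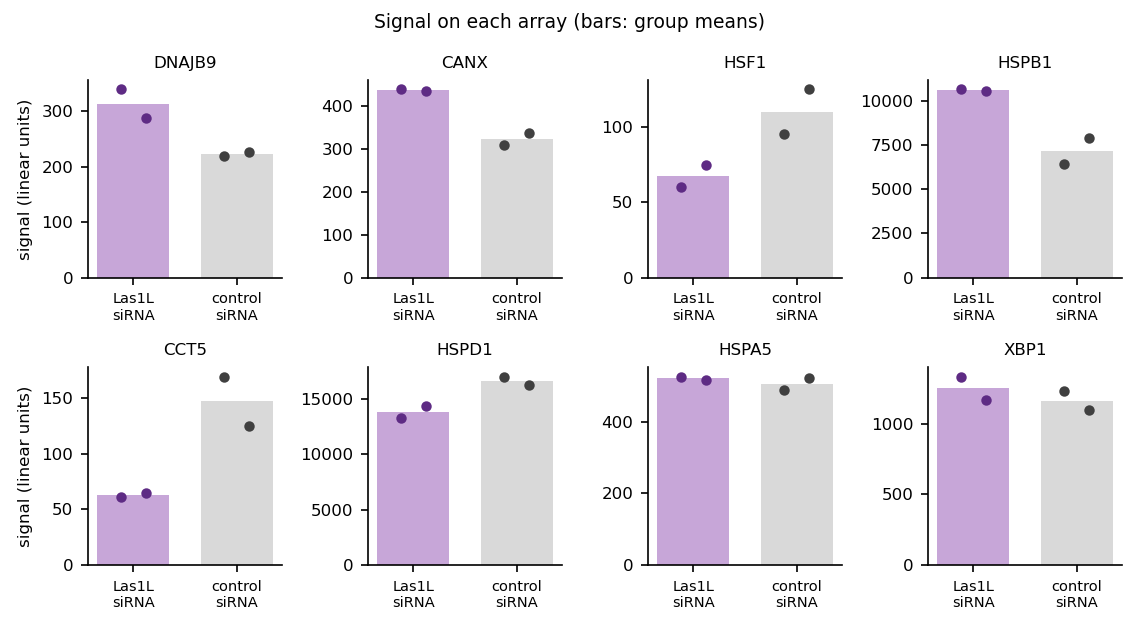
Signal in linear units on each array for the 6 chaperone genes past the threshold and for HSPA5 and XBP1. Points are single arrays, with Las1L siRNA left of control siRNA in each panel, and bars are group means. The points of the groups are apart for the first 6 genes and overlap for HSPA5 and XBP1.

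In the cytosolic heat shock class 1 of 11 tested genes rose and 1 fell (18.2% called, against 22.1% of all tested genes), with a median of -0.07. Both Las1L arrays lay below both controls for 54.5% of the class, against 29.8% of all tested genes, and above both for 18.2%, against 29.9%. HSPB1 (HSP27), a small heat shock protein that holds unfolded proteins and binds actin, gave 10633.0 and 10521.3 units with Las1L siRNA, against 6419.5 and 7878.1 units with control siRNA. Both Las1L arrays were above both controls, and it rose by 0.57 (SE 0.10, adjusted p = 2.4e-04), or 1.49-fold, the lowest adjusted p among the 39 genes. The adjusted p without the trend was 0.0921. HSF1, the heat shock transcription factor, had 60.4 and 74.7 units with Las1L siRNA and 95.3 and 124.8 units with control siRNA, and fell by 0.70 (SE 0.23, adjusted p = 0.0365). The HSF1 signals are dim, since the background limit is 28.1 units, and with 64 units added to each signal the log2 fold change was -0.40. In the fit over all probes the adjusted p of HSF1 was 0.0555, which ends the call.

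The inducible HSP70 gene HSPA1B had 6398.6 and 6611.1 units with Las1L siRNA and 5975.6 and 6243.9 units with control siRNA, a log2 fold change of 0.09 (interval -0.08 to 0.27, adjusted p = 0.485). HSPA1A is a near-identical copy, so the HSPA1B probe may read both, while the HSPA1A probe had 11.3 and -1.4 units with Las1L siRNA and -1.2 and 15 units with control siRNA. Both Las1L arrays were above both controls for HSPA1B, by less than the test could call. HSPA8, the constitutive HSP70, gave 14071.6 and 13770.0 units with Las1L siRNA and 15599.6 and 15489.8 units with control siRNA, with no overlap. Its log2 fold change was -0.16 (interval -0.33 to 0.01, adjusted p = 0.179). HSP90AA1, the stress-responsive cytosolic HSP90, was below both controls on both Las1L arrays, with a log2 fold change of -0.23 (interval -0.42 to -0.05, adjusted p = 0.0662).

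HSPA4, an exchange factor of HSP70, had 261.1 and 233.5 units with Las1L siRNA and 233.7 and 179.6 units with control siRNA, with overlapping groups. The log2 fold change was 0.27 on this brighter probe (interval -0.06 to 0.60, adjusted p = 0.238) and -0.16 on the other, and neither passed. Without control replicate 1 it was 0.46 on the brighter probe, and without control replicate 2 it was 0.08. The HSP90 paralogue HSP90AB1 had -0.07, the HSP110 protein HSPH1 -0.17 and the HSP40 protein DNAJA1 -0.13, each with both Las1L arrays below both controls and none past the threshold. DNAJB1, an HSP40 that is a classic HSF1 target, had 0.06 and the HSP70 co-chaperone BAG3 had 0.03, with overlapping groups. Of the 7 tested cytosolic genes with a heat shock core in a promoter window, HSPB1 rose and the median was -0.07. The 3 tested genes with a window but no such core (HSPA4, HSPH1 and BAG3) had a median of 0.03, and 0 of them passed.

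Of the 8 subunits of TRiC/CCT 7 had a log2 fold change below 0, against 5234 of all 10466 tested genes. The class median was -0.14, and 1 fell (12.5%, against 10.8% of all tested genes). Both Las1L arrays lay below both controls for 62.5% of the class, against 29.8% of all tested genes. CCT5 was read by 1 probe, the dimmest of those that represent the 8 subunits. CCT5 had 61.2 and 64.4 units with Las1L siRNA and 169.3 and 125.3 units with control siRNA. Both Las1L arrays were below both controls, and it fell by 1.21 (SE 0.22, adjusted p = 5.0e-04), which is 43.1% of control. This was the largest change among the 39 genes, and the gene passed without the trend too (adjusted p = 0.0434). The size of the fold depends on how dim signals are handled, and with 64 units added to each signal the log2 fold change was -0.73. The other subunits ranged from -0.27 for CCT4 to 0.04 for CCT6A. These signs are of the brightest probes and depended on that choice. A second, dimmer CCT6A probe had -0.26 (adjusted p = 0.0776 in the fit over all probes). In contrast CCT3, CCT7 and TCP1 each had a dimmer probe above 0 (0.04, 0.08 and 0.01). CCT8 had 6163.4 and 5571.1 units with Las1L siRNA and 7670.0 and 6191.9 units with control siRNA, a log2 fold change of -0.23 (interval -0.44 to -0.03, adjusted p = 0.101). CCT4 had 347.2 and 321.4 units with Las1L siRNA and 463.8 and 347.5 units with control siRNA. For both genes control replicate 1 was the highest array, and without it the log2 fold change was -0.08 for CCT8 and -0.06 for CCT4. CCT2 (-0.12) and CCT7 (-0.15) were also below both controls on both Las1L arrays, and CCT3 (-0.05) and TCP1 (-0.13) overlapped. TCP1, the first subunit described, had 1524.7 and 1530.1 units with Las1L siRNA and 1858.6 and 1508.1 units with control siRNA. Without control replicate 1 the log2 fold change of TCP1 was 0.02.

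All 3 mitochondrial chaperones were below both controls on both Las1L arrays, against 29.8% of all tested genes. All 3 are among the 2615 brightest genes, of which 33.9% were below both controls. The class median was -0.19, and -0.10 with the mean over probes. HSPD1 (HSP60) had 13280.8 and 14347.1 units with Las1L siRNA and 17028.4 and 16320.0 units with control siRNA, and fell by 0.27 (SE 0.08, adjusted p = 0.0257), to 82.8% of control. Its second probe fell by 0.56 in the fit over all probes (adjusted p = 0.0028), with 3358.8 and 3498.5 units with Las1L siRNA and 5830.5 and 4393.7 units with control siRNA. With the mean over its probes HSPD1 had a log2 fold change of -0.43. HSPE1 (HSP10), the lid of the HSPD1 chamber, had 6622.6 and 6751.7 units with Las1L siRNA and 7603.6 and 7689.0 units with control siRNA. Its log2 fold change of -0.19 (interval -0.37 to -0.02) did not pass (adjusted p = 0.102), and a second, dimmer probe had 0.30. HSPA9, the mitochondrial HSP70, had 5760.6 and 5755.4 units with Las1L siRNA and 6022.0 and 6311.0 units with control siRNA, a log2 fold change of -0.10 (adjusted p = 0.44).

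HSPD1 and HSPE1 lie head to head on chromosome 2, with starts 105 bases apart on opposite strands, so 204 bases of their promoter windows are shared. The shared stretch is shown because both genes are read from it, in the direction of HSPE1.
HSPE1 and HSPD1, chr2:197500225-197500428, plus strand: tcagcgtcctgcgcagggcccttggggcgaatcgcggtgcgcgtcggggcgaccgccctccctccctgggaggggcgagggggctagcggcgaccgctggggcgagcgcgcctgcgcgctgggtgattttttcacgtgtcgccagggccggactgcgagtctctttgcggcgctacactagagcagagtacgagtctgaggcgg

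Several probes can read the same gene, and they did not always move alike. Of 12 members with more than 1 tested probe, 6 had probes of opposite sign (CCT3, CCT6A, CCT7, HSPA4, HSPE1 and TCP1). In the fit over all probes 8 of the members' 56 tested probes passed, and 3 of the 8 were not the brightest probe of their gene. They were the second HSPD1 probe, a TCP1 probe and an HSP90AA1 probe. The TCP1 probe had 152.2 and 133.4 units with Las1L siRNA and 281.1 and 249.0 units with control siRNA, a log2 fold change of -0.89 (SE 0.16, adjusted p = 0.0011), while the 2 brighter TCP1 probes had -0.13 and 0.01. The HSP90AA1 probe had 20.3 and 9.3 units with Las1L siRNA, below the background limit, and 57.5 and 41.6 units with control siRNA. Its fold is bounded by the floor of 16 units, and the 2 bright HSP90AA1 probes had log2 fold changes of -0.23 and -0.22.

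**Figure D4:**
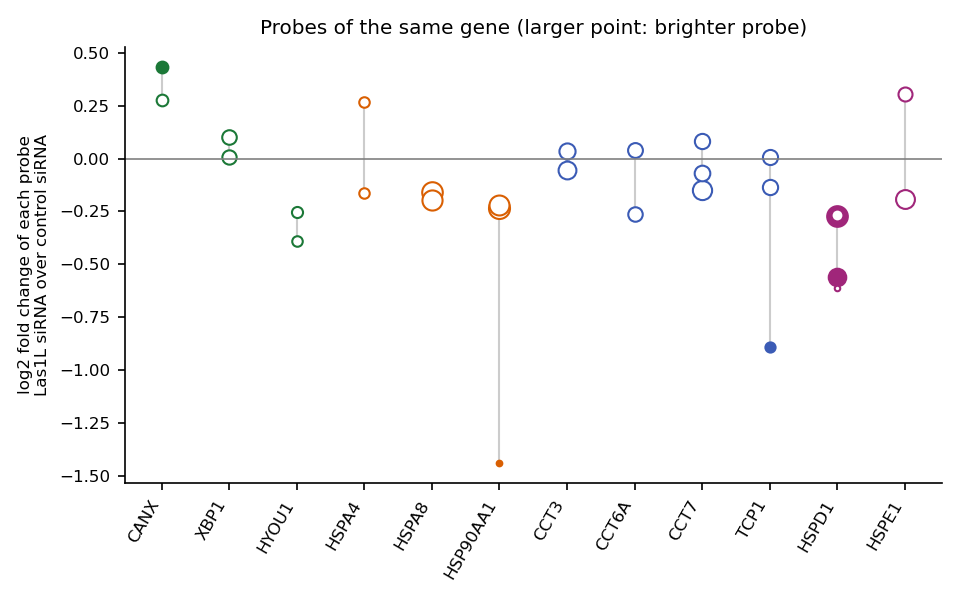
Log2 fold change, Las1L siRNA over control siRNA, of every tested probe of the 12 chaperone genes with more than 1 probe, coloured by class as in the plot of all 39 genes. Larger points are brighter probes and filled points passed the fit over all probes. Probes of HSPD1 all lie below 0, whereas those of TCP1 run from -0.89 to 0.01.

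The siRNAs were also compared directly, siRNA #2 minus siRNA #1. In limma with 3 groups 0 of the 39 genes passed, 0 had an unadjusted p under 0.05, and both counts were also 0 without the trend. The differences ran from -0.34 for SYVN1 (interval -0.74 to 0.06) to 0.31 for HSF1 (interval -0.49 to 1.10). With 1 array per siRNA such intervals do not show that the siRNAs act alike. DNAJB9 had log2 fold changes of 0.37 with siRNA #2 and 0.61 with siRNA #1, HSPB1 0.57 and 0.58, and CCT5 -1.18 and -1.25, all against the same control arrays.

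Partner genes of these pathways were read from 8 lists of sensors, enzymes and co-chaperones. Of their 130 tested genes 28 were called (21.5%), close to the 22.1% of all tested genes, with 9 that rose (6.92%, against 11.3% of all) and 19 that fell (14.6%, against 10.8% of all). Of the 5 tested sensors and their proteases 1 rose (20%, against 11.3% of all). It was MBTPS1, the site-1 protease that releases ATF6, which rose by 0.57 (SE 0.11). MBTPS1 had 1249.5 and 1506.6 units with Las1L siRNA and 851.4 and 1005.1 units with control siRNA. In the PERK arm ATF3 rose by 0.89, while ATF4 fell by 0.29 and TRIB3 by 0.50, of 5 tested (60% called, in a small list). The other two, DDIT3 (0.42, adjusted p = 0.0646) and PPP1R15A (0.29, adjusted p = 0.0548), did not pass, with both Las1L arrays above both controls. Of 22 ER folding enzymes 1 rose, the glucosidase II subunit PRKCSH, by 0.32, and 3 fell (18.2% called). The oxidase ERO1A fell by 0.66 (SE 0.13), the reductase DNAJC10 by 0.36 and the disulfide isomerase TXNDC5 by 0.33. ERO1A had 260.9 and 253.3 units with Las1L siRNA and 393.8 and 420.2 units with control siRNA, so the groups were apart.

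Of 22 genes of ER-associated degradation 2 rose and 2 fell (18.2% called, against 22.1% of all tested genes). ERLIN1 fell by 1.57 (SE 0.17), whereas its partner ERLIN2 rose by 0.78 (SE 0.17). The 2 proteins form a complex in the ER membrane. ERLIN2 had 194.6 and 184.9 units with Las1L siRNA and 110.2 and 110.7 units with control siRNA. The mannosidase EDEM3 fell by 0.72 and the ubiquitin ligase RNF5 rose by 0.67.

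Of 21 genes of protein entry into the ER 5 fell and 2 rose (33.3% called, against 22.1% of all tested genes). This difference in shares was not tested. Both subunits of the receptor for the signal recognition particle fell, SRPRB by 1.00 (SE 0.10) and SRPRA by 0.73 (SE 0.15). SRPRB had 872.3 and 889.5 units with Las1L siRNA and 1816.2 and 1717.8 units with control siRNA, and SRPRA had 165.8 and 198.4 units with Las1L siRNA and 285.8 and 316.0 units with control siRNA. The groups were apart for both. The translocon-associated SSR1 fell by 0.55 and the particle subunit SRP72 by 0.39, while SSR4 rose by 0.53 and SRP14 by 0.29.

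Of 27 cytosolic co-chaperones 1 rose and 3 fell (14.8% called, against 22.1% of all tested genes). HSPB8, a small heat shock protein that acts with BAG3, rose by 0.83 (SE 0.28), with dim signals of 86.2 and 81.7 units with Las1L siRNA and 38.0 and 59.0 units with control siRNA. HSPBP1, an HSP70 exchange factor, fell by 0.55, SUGT1, an HSP90 co-chaperone, by 0.48, and DNAJC7 by 0.33. Of 14 prefoldin and chaperonin cofactors 1 fell (7.14% called), the tubulin cofactor TBCB, by 0.29. Of 14 mitochondrial co-chaperones and proteases 1 rose, the protease LONP1, by 0.28, and 3 fell (28.6% called). GRPEL2, an exchange factor of HSPA9, fell by 0.82 (SE 0.11), with 456.1 and 490.3 units with Las1L siRNA and 835.3 and 839.5 units with control siRNA, the protease subunit CLPP fell by 0.40 and YME1L1 by 0.36. List medians ran from -0.16 for the mitochondrial partners to 0.29 for the PERK arm, against 0.00 to 2 decimals for all tested genes. Of the 28 calls in the 8 lists, 5 passed without the trend.

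**Figure D5:**
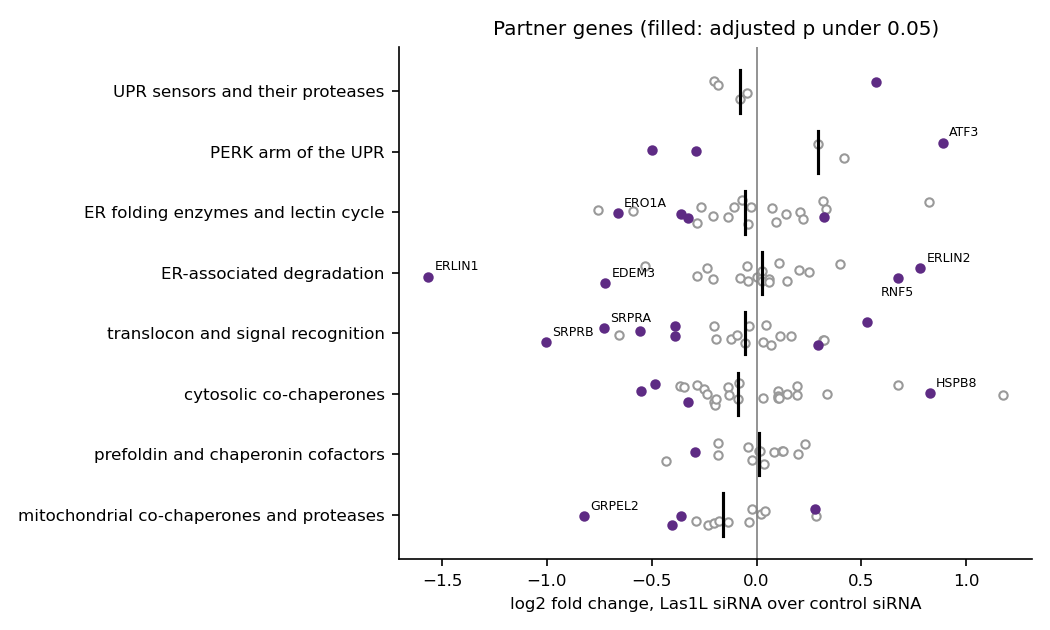
Log2 fold change, Las1L siRNA over control siRNA, of tested partner genes in 8 lists. Each point is a gene, filled where the adjusted p is under 0.05, and black bars are list medians. Named genes are calls beyond 0.6 on the log2 scale, with ERLIN1 and ERLIN2 at opposite ends and SRPRB and SRPRA on the lower side.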

How the data were processed

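The authors deposited 1 intensity per probe and array, on a linear scale, made with GenomeStudio per the submitters' processing notes, with version, background and normalization options not given in the sources used here. On each array 26.9% of values were below 0, and repeating quantile normalization changed no call. A table whose 8 value columns match no sample's labels was not used. Probes were named from a 2016 platform annotation updated to RefSeq symbols of GRCh38.p14 (30092 of 30113 probes with 1 symbol matched).

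Values were floored at 16 and log2 was taken. The noise was the root mean square of values below 0 (17.1 units), and the background limit its one-sided 0.05 point (28.1 units). Genes above the limit on at least 2 arrays were tested, each by its brightest such probe. The test was limma 3.58.1 in R 4.3.3 with an intensity trend and 2 groups. Its two-sided p-values were adjusted by the Benjamini-Hochberg method across the 10466 tested genes, with a threshold of 0.05. "Rose" and "fell" mean past that threshold. The trend was made the primary model, and the members, lists and rules were chosen, with earlier results of these data known. The limma fit was also run on simulated data, whose outcome is not reported here, and no result rests on it. Values on every array are given for each member past the threshold, the 3 of each class with the largest changes and fixed anchors, with up to 4 genes per direction from each partner list. Alternatives covered the trend, floor, offset, filter, limit, probe summary, normalization, groups, robust prior, replicate block and leaving out each array, and, chosen after seeing the data, a fit on all probes and the strict filter without the trend. With 2 arrays a group the number of arrays limits the precision.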

Additional observations from a re-analysis of the deposited data

How the results depend on the processing

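The count of 6 chaperone genes past the threshold (3 higher, 3 lower) was 1 without the trend (0 higher, 1 lower), 1 with 3 groups, 0 with a floor of 50 (11 at an unadjusted p under 0.05 in limma) and 0 with no filter on dim probes (9 unadjusted), where 0 of 20039 genes passed in limma (2932 unadjusted). It was 2 with the strict filter and no trend (1 higher, 1 lower) and 5 to 8 in the other settings that used all 4 arrays. Over all genes the 2313 calls became 500 without the trend, 253 with a floor of 50, 670 with 3 groups and 1224 with the strict filter and no trend. The cause was not tested. By class, the ER count of 2 and the cytosolic count of 2 were each 0 without the trend, with 3 groups, with the floor of 50 and with no filter. The strict filter without the trend gave 0 ER, 1 cytosolic and 0 mitochondrial genes, and the fit over all probes 1 cytosolic gene. The chaperonin count of 1 was 0 with the floor of 50 and with no filter. The mitochondrial count of 1 was 0 in these settings and without the trend or with 3 groups. The mean over probes gave 2 chaperonin genes and 5 lower members, a mitochondrial median of -0.10 against -0.19, and turned HSPE1 to 0.0546. The 28 partner genes became 5 without the trend, 9 with 3 groups, 5 with the floor of 50, 0 with no filter and 12 with the strict filter and no trend.

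Leaving out 1 array, which leaves fewer samples, gave 0 to 8 members (0 to 3 higher, 0 to 5 lower), 67 to 1789 genes in all, 0 to 2 ER, 0 to 2 cytosolic, 0 to 3 chaperonin and 0 to 1 mitochondrial genes, and 2 to 32 partner genes. The ER median ranged from -0.032 to 0.0203, the cytosolic from -0.11 to -0.03, the chaperonin from -0.23 to -0.09 and the mitochondrial from -0.21 to -0.18. Without control replicate 1 the log2 fold changes of HSPA5 and TCP1 turned sign, uncalled. Over single arrays left out HSPA5 ranged from -0.0027 to 0.0966 and TCP1 from -0.2831 to 0.0183. TCP1 passed with the mean over probes (-0.34, adjusted p = 0.0271). LAS1L kept its direction in every setting, ranged from -2.23 to -1.81 without 1 array, and missed the threshold at -2.02 with a floor of 50 (adjusted p = 0.0604) and with no filter (adjusted p = 0.121). The 6 called genes kept their direction in all 17 alternatives, which says little. As their groups do not overlap, leaving out 1 array cannot turn the direction. Settings such as the trend or the robust prior change the test and not the fold change.

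Group numbers are shared between the siRNA and control labels but mark different things, and deviations of same-numbered arrays correlated at 0.0347. With the replicate block 8 members passed, 2 of them chaperonin genes, and 2532 genes in all. Signal over background limits HSF1, EDEM1 and CCT5 most, and genes below the limit gave no test.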
